A study of Mus musculus with 28 samples.

Results

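The NADPH oxidase subunits and adaptors described here are 9 genes, chosen by symbol among the 45318 genes of the count tables: Cybb, Cyba, Ncf1, Ncf4, Rac2, Nox4, Duox2, Sh3pxd2a and Sh3pxd2b. All 9 were found and all 9 passed the filter on low counts at each follow-up. RNA came from the myocardium of neonatal male Hsd:ICR(CD-1) mice, an outbred stock with no engineered allele named in the labels. The paper places the 21-day RNA samples distal to the ischemic insult, and ties a remote zone to its electron microscopy. Its main text gives no site for the 3-day RNA samples, so how much infarcted tissue they held is not known here. Myocardial infarction (MI) was made by ligating the left anterior descending coronary artery at postnatal day 7 or day 1, ages named by the study as regeneration-compromised and regeneration-competent, and age-matched mice had a sham operation. After 3 days there were 4 libraries each of 7d-MI + 3, 7d-SHAM + 3 (10 days old), 1d-MI + 3 and 1d-SHAM + 3 (4 days old). After 21 days there were 3 libraries each of 7d-MI + 21, 7d-SHAM + 21 (28 days old), 1d-MI + 21 and 1d-SHAM + 21 (22 days old), 28 libraries in all. The question put to the 9 genes was whether MI changed their RNA relative to sham, and whether that change differed between the ages at operation and between the follow-ups.

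NADPH oxidases are membrane enzymes that move electrons from NADPH across a membrane onto oxygen and so release superoxide or hydrogen peroxide on purpose. The phagocyte enzyme is a membrane heterodimer of gp91phox (Cybb) and p22phox (Cyba) that becomes active when cytosolic proteins, among them p47phox (Ncf1) and p40phox (Ncf4), and the blood-cell GTPase Rac2 assemble on it, and it serves killing of microbes by neutrophils and macrophages. Nox4, known from cardiomyocytes, fibroblasts and vascular cells, works with p22phox, needs no cytosolic subunit and mostly gives hydrogen peroxide. Duox2, known from thyroid and mucosal epithelium, is a calcium-regulated peroxide-producing oxidase. Sh3pxd2a and Sh3pxd2b encode Tks5 and Tks4, scaffold proteins related to p47phox that organise podosomes and can bring oxidases to them.

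Libraries held 33077962 to 51942648 counts at 3 days and 40514177 to 168550985 at 21 days, with 19446 to 35932 and 25059 to 35464 genes detected. Library kit and instrument differed between the follow-ups, so levels were scaled within each and never compared across them. The 3-day groups were not alike in makeup: 1d-MI + 3 libraries detected 27324 to 35932 genes and 1d-SHAM + 3 libraries 20069 to 30025, against 19446 to 22316 in the day-7 groups. The share of counts in rRNA genes moved with the groups, at 18.5 to 20.9% in 7d-MI + 3 and 22.9 to 25.8% in 7d-SHAM + 3, 10.7 to 13.1% in 7d-MI + 21 and 14.4 to 32.6% in 7d-SHAM + 21, and 2.10 to 17.2% in 1d-MI + 21 and 19.4 to 27.2% in 1d-SHAM + 21. It overlapped between 1d-MI + 3 (7.77 to 13.9%) and 1d-SHAM + 3 (2.90 to 22.6%), and its part in the results was not tested. Library titles carry a prefix, and no prefix occurs in more than 1 group. At 3 days, 7d-MI has 1077, 1088 and 1090, 7d-SHAM has 1075, 1d-MI has 1059 (replicate 1) and 1086, and 1d-SHAM has 1078 (replicates 1 and 2) and 1103 (replicates 3 and 4). The 1d-SHAM + 3 libraries had rRNA shares of 2.90 and 9.26% with prefix 1078 and 16.9 and 22.6% with prefix 1103. At 21 days each group has a single prefix, which cannot be told apart from the group. The labels name separate samples without saying how litters were spread, so p-values measure only the spread between these libraries. Markers of cardiomyocytes, the defining cell of the tissue, summed to between 12822 and 30709 scaled CPM in every library (CPM scaled by TMM, a factor per library). They moved with MI, at 14807 to 24702 in 7d-MI + 3 against 29132 to 30563 in 7d-SHAM + 3, where 5 of 7 fell, and at 24351 to 30709 in 1d-MI + 21 against 17217 to 21783 in 1d-SHAM + 21, where none passed. Their part in the results was not tested.

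The promoter windows of 4 members are shown because they span the range of base composition among the genes that moved and could be matched to a window. They run from the phagocyte subunits to Nox4 and a podosome scaffold. Each is 300 bases from RefSeq on GRCm38.p6, 250 before and 50 after the start site, written 5′ to 3′ on the strand of the gene, with every CG in capitals. Cybb lies at chrX:9469275-9469574 (minus strand), Ncf1 at chr5:134229576-134229875 (minus), Nox4 at chr7:87246399-87246698 (plus) and Sh3pxd2b at chr11:32347590-32347889 (plus). In Cybb the capitals also mark a match to GAGGAA, the core bound by ETS factors such as the myeloid factor PU.1, which reads TTCCTC on this strand.
Cybb: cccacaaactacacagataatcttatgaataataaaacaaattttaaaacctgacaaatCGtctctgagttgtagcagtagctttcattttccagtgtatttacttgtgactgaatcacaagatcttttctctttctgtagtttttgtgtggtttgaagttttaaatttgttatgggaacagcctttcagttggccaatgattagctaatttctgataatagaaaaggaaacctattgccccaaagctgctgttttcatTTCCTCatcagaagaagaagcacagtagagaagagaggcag
Ncf1: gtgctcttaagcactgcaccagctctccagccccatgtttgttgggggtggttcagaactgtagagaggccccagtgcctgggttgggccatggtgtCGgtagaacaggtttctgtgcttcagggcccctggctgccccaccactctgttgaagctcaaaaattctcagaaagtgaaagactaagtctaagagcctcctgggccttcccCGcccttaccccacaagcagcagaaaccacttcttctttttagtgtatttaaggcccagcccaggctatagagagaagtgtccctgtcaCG
Nox4: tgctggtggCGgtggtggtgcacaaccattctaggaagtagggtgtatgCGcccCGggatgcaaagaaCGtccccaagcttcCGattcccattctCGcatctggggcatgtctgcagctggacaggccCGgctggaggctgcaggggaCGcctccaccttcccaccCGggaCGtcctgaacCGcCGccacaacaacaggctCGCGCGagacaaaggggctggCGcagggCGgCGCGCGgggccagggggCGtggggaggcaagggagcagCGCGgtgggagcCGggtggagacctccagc
Sh3pxd2b: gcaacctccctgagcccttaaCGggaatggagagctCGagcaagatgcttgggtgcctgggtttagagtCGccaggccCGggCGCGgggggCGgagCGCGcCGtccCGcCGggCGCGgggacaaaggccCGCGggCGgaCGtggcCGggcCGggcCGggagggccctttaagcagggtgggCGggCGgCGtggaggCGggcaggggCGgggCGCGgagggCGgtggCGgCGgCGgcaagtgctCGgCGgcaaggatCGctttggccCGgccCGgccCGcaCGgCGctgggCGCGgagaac

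Cybb was AT-rich, with 35.3% GC and 1 CG, and Ncf1 had 54.0% GC and 3 CG. Nox4 had 68.3% GC and 24 CG, and Sh3pxd2b had 77.3% GC and 42 CG. The median over 32851 windows of all genes was 7 CG and 52.7% GC. The GAGGAA letters, searched on both strands, occurred in 1 of the 6 member windows that could be matched (also Cyba with 9 CG and Duox2 with 10 CG), at bases 260 to 265 of Cybb, and in 28.3% of all windows. A match of letters is a description and not a bound site. Ncf4, Rac2 and Sh3pxd2a were not among the windows used here.

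On GRCm38 the 9 genes lie on 8 chromosomes: Cybb at chrX:9435252-9487771, Cyba at chr8:122424776-122432930, Ncf1 at chr5:134220053-134229625, Ncf4 at chr15:78244801-78262580, Rac2 at chr15:78559167-78572783, Nox4 at chr7:87246096-87398710, Duox2 at chr2:122279247-122298449, Sh3pxd2a at chr19:47260174-47464401 and Sh3pxd2b at chr11:32347820-32428173. Cyba overlaps Gm20388 and Ncf1 overlaps Gtf2ird2 on the opposite strand, and Sh3pxd2a holds Mir6995. Whether reads were counted by strand is not given in the sources used here, so the Cyba and Ncf1 counts may hold reads of those neighbours.

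3 days after MI at day 7, 7 of the 9 genes rose in the myocardium, from about 1.59-fold for Nox4 to 9.54-fold for Ncf4, and none fell (edgeR quasi-likelihood test, adjusted p below 0.05). Over all 20345 genes tested, 19.8% rose and 34.0% changed in either direction. The 4 phagocyte genes Cybb, Ncf1, Ncf4 and Rac2 rose together with both podosome scaffolds and Nox4. Cyba and Duox2 did not pass the test. In 8 of the 9 genes every 7d-MI + 3 library lay above every 7d-SHAM + 3 library, as in 21.7% of all genes. The median log2 fold change of the 9 genes was 2.01, against 0.08 over all genes. The study picked Cybb, Ncf1, Ncf4, Sh3pxd2a and Sh3pxd2b by comparing infarcted hearts of the different ages at operation. The 7d-MI + 3 libraries enter that comparison and also the counts and the median given here. For these genes the counts and the median are therefore no independent evidence. Rac2 and Nox4, which also rose, were not among the genes picked.

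Cybb, the catalytic subunit, stood at 66.0, 51.3, 32.9 and 30.1 scaled CPM in 7d-MI + 3 hearts, against 13.7, 7.37, 8.25 and 6.68 in 7d-SHAM + 3 hearts. Every infarcted library lay above every sham library, and the log2 fold change was 2.33 (SE 0.31, edgeR adjusted p = 2.04e-05). Ncf4, encoding p40phox, which binds the lipid PI3P on phagosomes, had 8.91, 7.46, 4.62 and 4.82 scaled CPM in 7d-MI + 3 and 0.884, 0.557, 0.563 and 0.706 in 7d-SHAM + 3. It had the largest change of the 9 genes here, with a log2 fold change of 3.25 (SE 0.33, edgeR adjusted p = 5.31e-07), from 18 to 26 counts per sham library.

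Ncf1, the organiser whose phosphorylation starts assembly, had 10.5, 10.6, 7.70 and 7.46 scaled CPM in 7d-MI + 3, against 2.48, 1.30, 1.13 and 0.868 in 7d-SHAM + 3. The groups were far apart and the log2 fold change was 2.66 (SE 0.31, edgeR adjusted p = 2.21e-06). Rac2 had 5.83, 7.68, 4.27 and 4.77 scaled CPM in 7d-MI + 3, against 1.09, 1.11, 1.13 and 1.36 in 7d-SHAM + 3. The 4 sham libraries were nearly level, and the log2 fold change was 2.26 (SE 0.30, edgeR adjusted p = 8.81e-06).

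Cyba, the p22phox partner that Cybb and Nox4 share, had 14.7, 15.5, 9.32 and 13.6 scaled CPM in 7d-MI + 3 and 7.48, 7.06, 9.32 and 9.06 in 7d-SHAM + 3. The lowest infarcted and the highest sham library were level at this precision, and the log2 fold change of 0.69 (SE 0.31) did not pass (edgeR adjusted p = 0.0972). Without the filter on low counts, and in a fit of these groups alone, it did pass (adjusted p = 0.00487 and 0.00665).

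Nox4 had 5.33, 6.56, 5.01 and 6.38 scaled CPM in 7d-MI + 3, against 3.13, 3.22, 3.87 and 4.37 in 7d-SHAM + 3. The groups did not overlap, but the step was small, with a log2 fold change of 0.67 (SE 0.22, edgeR adjusted p = 0.0195). The call was lost with the title prefix as a block in limma-voom (adjusted p = 0.0999) and without 7d-MI + 3 replicate 2 (0.0633), 7d-MI + 3 replicate 4 (0.0561), 7d-SHAM + 3 replicate 1 (0.0646) or 7d-SHAM + 3 replicate 2 (0.0641).

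Among the scaffolds, Sh3pxd2b had 21.98, 29.3, 30.8 and 26.5 scaled CPM in 7d-MI + 3, against 8.09, 5.45, 6.45 and 6.87 in 7d-SHAM + 3. The change of 2.01 on the log2 scale had the smallest adjusted p of the 9 genes in this comparison (SE 0.17, edgeR adjusted p = 6.66e-08). Sh3pxd2a had 35.0, 47.4, 65.7 and 50.4 scaled CPM in 7d-MI + 3 and 24.9, 23.2, 25.0 and 23.4 in 7d-SHAM + 3. The sham libraries were tight and all lower, and the log2 fold change was 1.04 (SE 0.16, edgeR adjusted p = 3.96e-05).

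**Figure D1:**
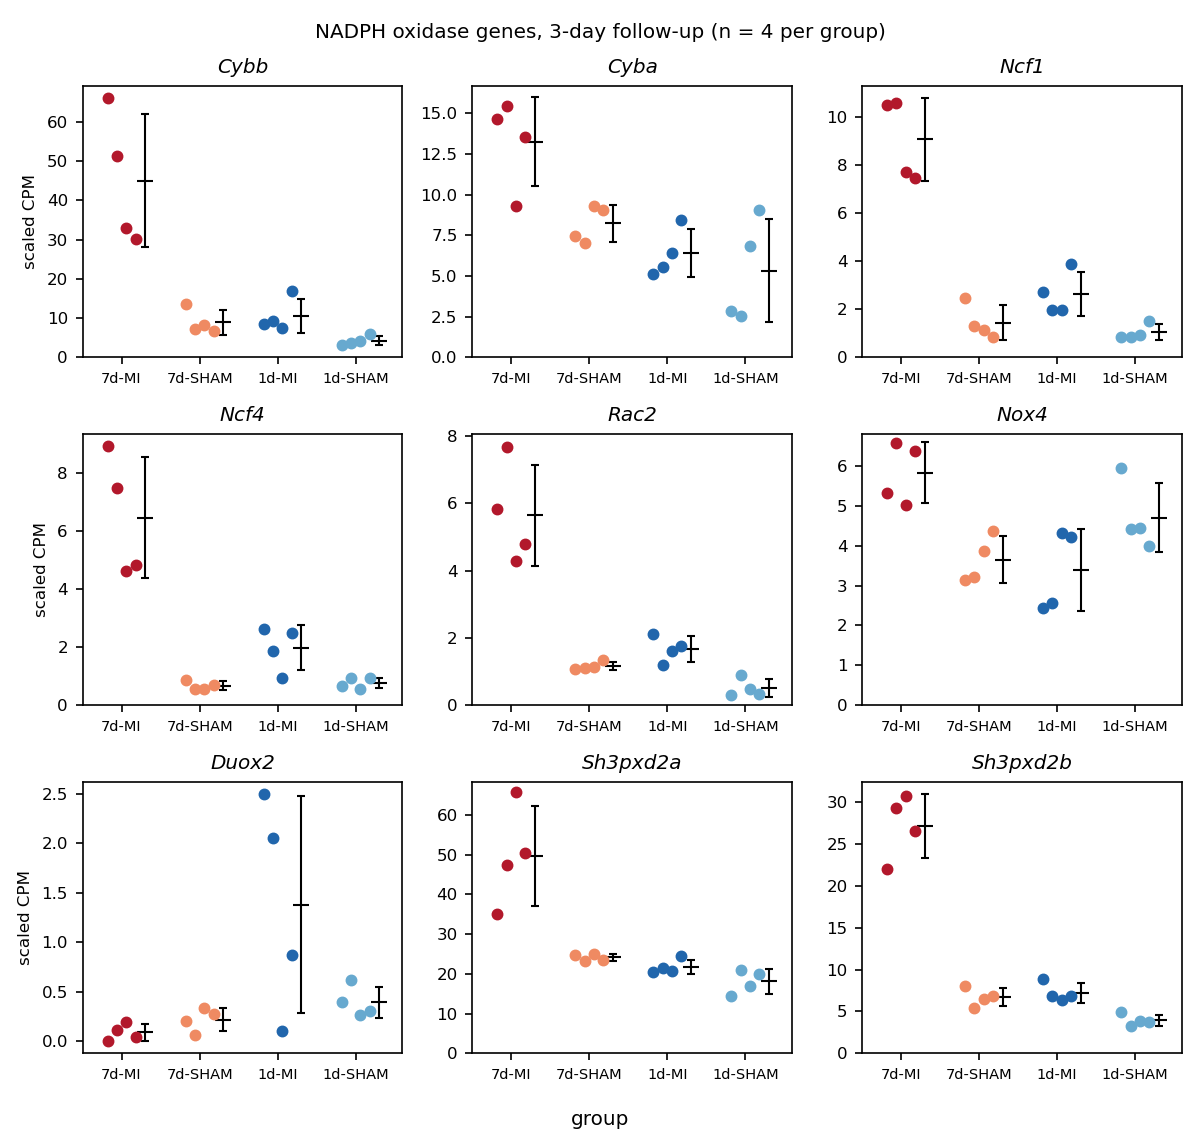
Scaled CPM of the 9 genes at the 3-day follow-up in 7d-MI, 7d-SHAM, 1d-MI and 1d-SHAM hearts, 1 point per library, with mean ± SD (n = 4) as bars. Cybb stands at 30.1 to 66.0 in 7d-MI against 6.68 to 13.7 in 7d-SHAM, and Duox2 is highest in 1d-MI replicate 1 at 2.49.

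Leukocyte RNA moved with these genes. The summed level of 7 pan-leukocyte markers (Ptprc, Coro1a, Laptm5, Tyrobp, Fcer1g, Spi1 and Lcp1) was 219 to 394 scaled CPM in 7d-MI + 3, against 36.8 to 63.9 in 7d-SHAM + 3, and all 7 rose. All 11 macrophage and monocyte markers rose too, with sums of 320 to 541 against 114 to 150. Of 13 neutrophil markers, 11 were tested and 10 rose, with sums of 40.0 to 83.6 against 2.85 to 5.10 and Elane at 0 in both groups. In bulk RNA, more cells of a type and more RNA per cell cannot be told apart.

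Divided by the pan-leukocyte sum of the same library, a ratio added after the data were seen, Cybb came to 11.7 to 16.8% in 7d-MI + 3 and 15.7 to 21.4% in 7d-SHAM + 3, overlapping and not higher. Ncf1 came to 2.67 to 3.51% against 2.05 to 3.89%, and Rac2 to 1.48 to 2.42% against 1.70 to 3.20%, both overlapping. Ncf4 came to 2.26, 2.36, 2.11 and 1.87% in 7d-MI + 3, against 1.38, 1.51, 1.116 and 1.66% in 7d-SHAM + 3. Of these 4 genes it alone had a higher ratio in every infarcted library with this denominator, and the order depended on the denominator. Relative to macrophage and monocyte markers both Ncf4 (1.23 to 1.65% in 7d-MI + 3 against 0.419 to 0.590% in 7d-SHAM + 3) and Ncf1 (1.90 to 2.40% against 0.718 to 1.66%) were higher without overlap, while Cybb and Rac2 overlapped. Relative to neutrophil markers Ncf4 overlapped (5.53 to 22.3% against 12.5 to 19.6%) and Rac2 was lower without overlap (5.11 to 14.6% against 21.3 to 39.1%).

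Fibroblast RNA moved as well. The sum of 8 fibroblast markers was 6168 to 7023 scaled CPM in 7d-MI + 3, against 3557 to 3986 in 7d-SHAM + 3, with 6 of 8 higher and Dcn and Lum lower. Relative to that sum Sh3pxd2b came to 0.356, 0.459, 0.438 and 0.386% in 7d-MI + 3, against 0.216, 0.137, 0.162 and 0.193% in 7d-SHAM + 3, again with no overlap. Sh3pxd2a came to 0.568 to 0.936% against 0.587 to 0.666%, and Nox4 to 0.0714 to 0.103% against 0.0812 to 0.123%. These overlapped. Of 6 mural cell markers 5 rose and Rgs5 fell, and their sum was 905 to 1249 scaled CPM in 7d-MI + 3 and 1444 to 1502 in 7d-SHAM + 3, a move whose part in these values was not tested.

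**Figure D2:**
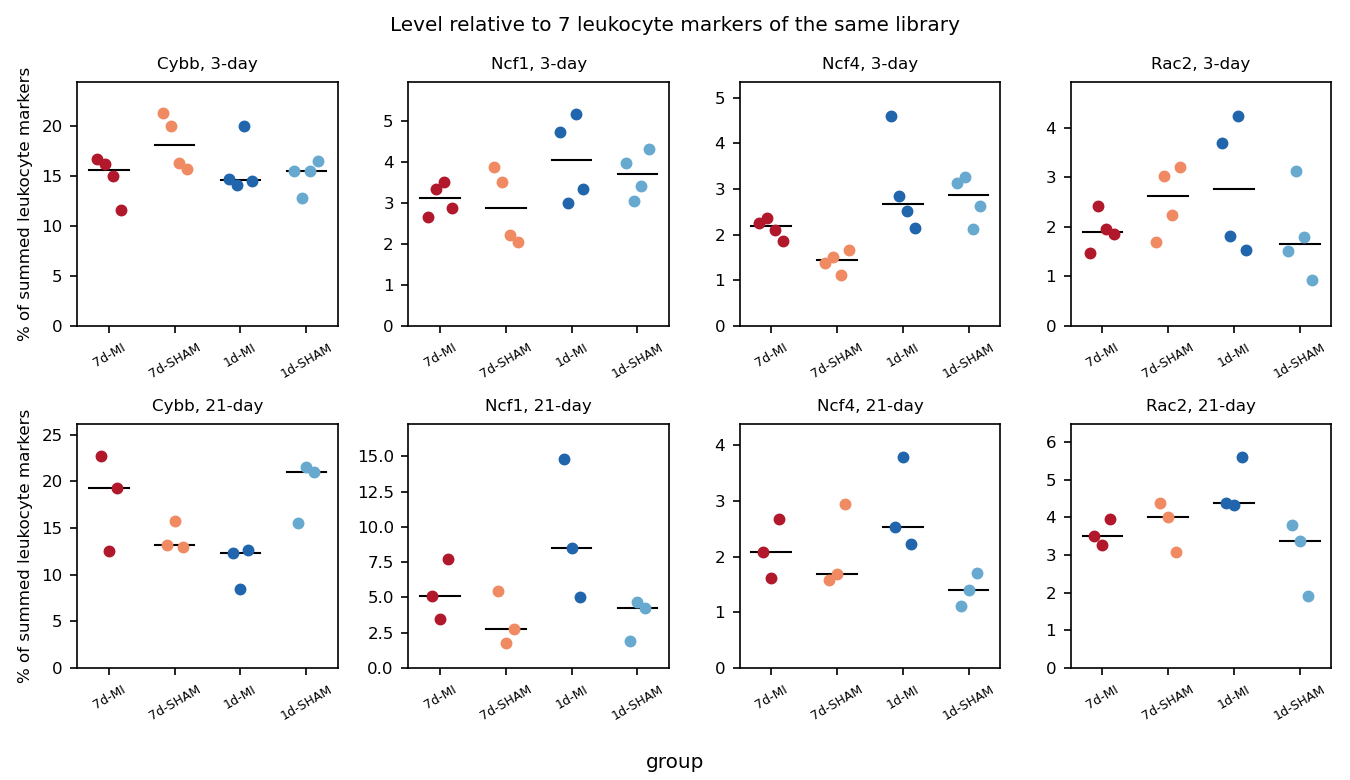
Level of Cybb, Ncf1, Ncf4 and Rac2 as a percentage of the summed scaled CPM of 7 leukocyte markers in the same library, by group, at 3 days (top) and 21 days (bottom), with 1 point per library and the group median as a line. Cybb overlaps between 7d-MI and 7d-SHAM at 3 days (11.7 to 16.8% against 15.7 to 21.4%) and lies lower in 1d-MI than in 1d-SHAM at 21 days (8.44 to 12.6% against 15.5 to 21.5%).

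3 days after MI at day 1, 5 of the 9 genes rose and none fell: Cybb, Ncf1, Ncf4, Rac2 and Sh3pxd2b, by 1.83- to 3.26-fold. Over all genes 4.10% rose and 4.36% fell. The same 5 genes were those whose infarcted libraries all lay above the shams, as in 6.52% of all genes, while 5.66% lay wholly below. The median log2 fold change was 1.33 for the 9 genes and 0.06 over all genes. Nox4, Cyba, Duox2 and Sh3pxd2a did not pass.

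Rac2 had 2.12, 1.21, 1.61 and 1.77 scaled CPM in 1d-MI + 3, against 0.318, 0.888, 0.487 and 0.333 in 1d-SHAM + 3. The groups did not overlap, and the log2 fold change was 1.70 (SE 0.31, edgeR adjusted p = 0.00356) on 10 to 42 counts per sham library. Cybb had 8.46, 9.36, 7.62 and 16.8 scaled CPM in 1d-MI + 3, against 3.26, 3.64, 4.21 and 5.86 in 1d-SHAM + 3. Replicate 4 was the highest of each group, and the log2 fold change was 1.33 (SE 0.31, edgeR adjusted p = 0.0171).

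Ncf1 had 2.72, 1.99, 1.97 and 3.89 scaled CPM in 1d-MI + 3, against 0.836, 0.867, 0.930 and 1.53 in 1d-SHAM + 3, a log2 fold change of 1.36 (SE 0.31, edgeR adjusted p = 0.0122). Ncf4 had 2.64, 1.88, 0.953 and 2.49 scaled CPM in 1d-MI + 3, against 0.657, 0.930, 0.576 and 0.932 in 1d-SHAM + 3, a log2 fold change of 1.37 (SE 0.32, edgeR adjusted p = 0.0137). The lowest infarcted Ncf4 library lay just above the highest sham library. Sh3pxd2b had 8.92, 6.86, 6.31 and 6.81 scaled CPM in 1d-MI + 3, against 4.92, 3.28, 3.85 and 3.73 in 1d-SHAM + 3. These groups stood clear of each other, and the log2 fold change was 0.87 (SE 0.17, edgeR adjusted p = 0.00506).

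Nox4 pointed the other way without passing, at 2.43, 2.57, 4.31 and 4.22 scaled CPM in 1d-MI + 3 and 5.95, 4.42, 4.43 and 3.995 in 1d-SHAM + 3 (log2 fold change -0.47, SE 0.21, edgeR adjusted p = 0.158). Sh3pxd2a had 20.5, 21.5, 20.8 and 24.4 scaled CPM in 1d-MI + 3 and 14.4, 21.1, 16.8 and 20.1 in 1d-SHAM + 3 (log2 fold change 0.27, SE 0.16, adjusted p = 0.267). Both pairs of groups overlapped.

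Cyba had 5.13, 5.56, 6.43 and 8.45 scaled CPM in 1d-MI + 3 and 2.85, 2.56, 6.84 and 9.06 in 1d-SHAM + 3. The sham libraries split by title prefix, with replicates 1 and 2 (1078) low and replicates 3 and 4 (1103) high. Over both prefixes the log2 fold change was 0.28 (SE 0.31, edgeR adjusted p = 0.575). Against prefix 1078 alone it was 1.23 (adjusted p = 0.00790), and against prefix 1103 alone it was -0.30 (0.318). The direction of Cyba at day 1 differed between the prefixes, and what a prefix stands for is not given in the labels.

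The day-1 calls were the less stable of the 3-day MI effects. None of the 5 held with the title prefix as a block or in a fit of the 1d groups alone, where adjusted p-values were 0.0556 to 0.121 and 0.0524 to 0.0983. Against prefix 1078 of 1d-SHAM + 3 alone, 3 of the 5 passed (Ncf1, Rac2 and Sh3pxd2b) and Cyba was added, and against prefix 1103 alone 4 of the 5 passed. Cybb was lost against each prefix (adjusted p = 0.0839 for 1078 and 0.0862 for 1103) and without 1d-SHAM + 3 replicate 1 (0.0503), 1d-SHAM + 3 replicate 3 (0.0609) or 1d-MI + 3 replicate 4 (0.0549). Ncf1 was lost without 1d-MI + 3 replicate 4 (0.0513), and Ncf4 without 1d-MI + 3 replicate 1 (0.0507), against prefix 1078 (0.0678) and in limma-voom (0.0593). The count was 3 without 1d-MI + 3 replicate 4.

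Marker sums again moved alongside. Pan-leukocyte sums were 38.0 to 116 scaled CPM in 1d-MI + 3, against 21.0 to 35.5 in 1d-SHAM + 3, with 5 of 7 markers higher. Macrophage and monocyte sums were 85.4 to 207 against 44.3 to 68.5, with 4 of 11 markers higher. Neutrophil sums were 23.1 to 30.1 against 5.01 to 9.51, with 5 of 11 tested markers higher. As a share of the pan-leukocyte sum, Cybb was 14.2 to 20.1% in 1d-MI + 3 and 12.8 to 16.5% in 1d-SHAM + 3, and these overlapped. The shares of Ncf1, Ncf4 and Rac2 overlapped too, so the separation of Ncf4 at day 7 did not recur at day 1. Fibroblast sums overlapped at 1795 to 3401 against 2400 to 3056. Relative to them Sh3pxd2b was 0.348, 0.382, 0.205 and 0.200% in 1d-MI + 3, against 0.161, 0.117, 0.161 and 0.149% in 1d-SHAM + 3, higher in every infarcted library as it was at day 7. Mural sums were lower without overlap, at 462 to 740 scaled CPM in 1d-MI + 3 against 746 to 981 in 1d-SHAM + 3. Endothelial sums overlapped at 173 to 282 against 255 to 308. The part of these sums in the Nox4 values was not tested.

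The MI effect at 3 days was larger at day 7 than at day 1 for 4 of the 9 genes by the interaction test and smaller for none, against 9.01% larger and 4.07% smaller of all genes. The study picked Cybb, Ncf1, Ncf4, Sh3pxd2a and Sh3pxd2b from 7d-MI against 1d-MI, whose 3-day libraries enter this difference. For these genes the count is no independent evidence. Ncf4 differed by 1.88 on the log2 scale (SE 0.45, edgeR adjusted p = 0.00939), Nox4 by 1.15 (SE 0.30, 0.0166), Sh3pxd2b by 1.14 (SE 0.24, 0.00357) and Sh3pxd2a by 0.77 (SE 0.22, 0.0276). For Nox4 the effects had opposite signs, and for the others both were above 0. Ncf1 missed at 1.30 (SE 0.43, adjusted p = 0.0507), and Cybb (1.00, adjusted p = 0.135) and Rac2 (0.56, adjusted p = 0.433) did not pass. Sh3pxd2b alone held with the prefix as a block, where 1 gene passed, and 2 passed in limma-voom, Nox4 and Sh3pxd2b. Sh3pxd2a also lost its call under upper-quartile scaling (adjusted p = 0.130) and without 7d-MI + 3 replicate 3 (0.0536), 7d-SHAM + 3 replicate 2 (0.0552), 7d-SHAM + 3 replicate 4 (0.0502), 1d-MI + 3 replicate 1 (0.0522) or 1d-SHAM + 3 replicate 2 (0.0535). Ncf1 passed in DESeq2 (adjusted p = 0.0466), with no filter (0.00793), against prefix 1103 of 1d-SHAM + 3 alone (0.0289) and without 7d-MI + 3 replicate 3 (0.0486), 7d-SHAM + 3 replicate 1 (0.0105), 1d-MI + 3 replicate 4 (0.0199), 1d-SHAM + 3 replicate 1 (0.0478) or 1d-SHAM + 3 replicate 2 (0.0475). Cybb passed with no filter (0.000822) and without 1d-MI + 3 replicate 4 (0.0295), and Duox2 (-3.07, adjusted p = 0.0960) in DESeq2 (0.0437) and without 1d-MI + 3 replicate 3 (0.0349). Nox4 lost its call against prefix 1103 of 1d-SHAM + 3 alone (adjusted p = 0.0502).

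**Figure D3:**
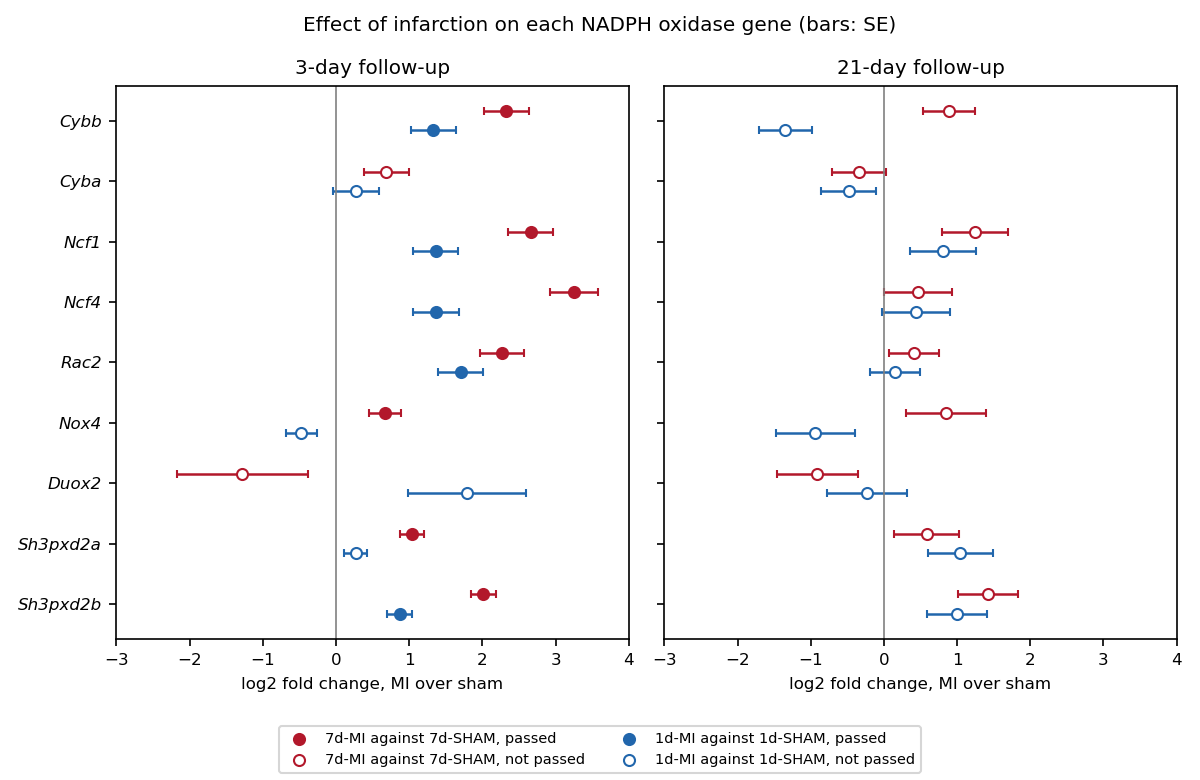
Log2 fold change of MI over sham for each gene, operated at day 7 or day 1, at 3 days (left) and 21 days (right), with SE as bars and filled points where edgeR's adjusted p was below 0.05. At 3 days 7 points are filled for day 7 and 5 for day 1, and at 21 days none is.

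Between infarcted hearts of different age at operation, all 9 genes differed at 3 days, 8 of them higher in 7d-MI + 3 than in 1d-MI + 3 and Duox2 lower, where 43.0% of all genes differed, 19.4% higher and 23.5% lower. The study picked Cybb, Ncf1, Ncf4, Sh3pxd2a and Sh3pxd2b from this contrast, so their direction is no independent evidence. Of the other members, Rac2 was higher by 1.75 (SE 0.29, edgeR adjusted p = 0.000114), Cyba by 1.05 (SE 0.31, 0.0113) and Nox4 by 0.78 (SE 0.21, 0.00663) on the log2 scale. This contrast mixes age with infarction and shares its libraries with the MI effects above. Pan-leukocyte sums were 219 to 394 scaled CPM in 7d-MI + 3 against 38.0 to 116 in 1d-MI + 3, with all 7 markers higher. Macrophage and monocyte sums were 320 to 541 against 85.4 to 207, with all 11 markers higher. Of 11 neutrophil markers tested, 3 were higher and none lower. Fibroblast sums were 6168 to 7023 scaled CPM in 7d-MI + 3 against 1795 to 3401 in 1d-MI + 3. Mural sums were 905 to 1249 against 462 to 740. Relative to the fibroblast sum, Nox4, Sh3pxd2a and Sh3pxd2b each overlapped between these groups. The part of these markers was not tested.

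Between the sham hearts 3 genes differed, all higher in 7d-SHAM + 3 than in 1d-SHAM + 3, where 20.3% of all genes differed and 8.12% were higher. Title prefix and rRNA share (22.9 to 25.8% against 2.90 to 22.6%) differed with age here and cannot be told apart from it. Cybb was higher by 1.09 on the log2 scale (SE 0.31, edgeR adjusted p = 0.0219), Rac2 by 1.19 (SE 0.32, 0.0128) and Sh3pxd2b by 0.76 (SE 0.17, 0.00377). Rac2 was lost in limma-voom (adjusted p = 0.0706) and in a fit of these groups alone (0.0520). No call held with the prefix as a block, where adjusted p-values were 0.148, 0.204 and 0.0871, and Sh3pxd2b was the 1 gene called without 1d-SHAM + 3 replicate 1. Cybb was also lost without 7d-SHAM + 3 replicate 1 (0.0808) or 1d-SHAM + 3 replicate 2 (0.0792), and against prefix 1103 of 1d-SHAM + 3 alone (0.84, adjusted p = 0.342). Macrophage and monocyte sums were 114 to 150 scaled CPM in 7d-SHAM + 3 against 44.3 to 68.5 in 1d-SHAM + 3. Of those 11 markers 9 were higher, as were 2 of 7 pan-leukocyte markers, while 1 of 11 tested neutrophil markers was lower. Fibroblast sums were 3557 to 3986 scaled CPM in 7d-SHAM + 3 against 2400 to 3056 in 1d-SHAM + 3. Relative to them Sh3pxd2b overlapped between the sham groups. The part of these markers was not tested.

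Duox2 was low in most 3-day libraries. The 3-day libraries held 0 to 119 Duox2 counts each, at 0, 0.116, 0.196 and 0.0434 scaled CPM in 7d-MI + 3 and 0.204, 0.0619, 0.333 and 0.271 in 7d-SHAM + 3. In the day-1 groups it had 2.49, 2.05, 0.0992 and 0.866 scaled CPM in 1d-MI + 3 and 0.398, 0.613, 0.266 and 0.2997 in 1d-SHAM + 3. The 1d-MI + 3 libraries ranged widely and overlapped their shams (log2 fold change 1.79, SE 0.80, edgeR adjusted p = 0.154), as the day-7 groups did (-1.28, SE 0.89, adjusted p = 0.296).

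The day-1 effect on Duox2 passed without 1d-MI + 3 replicate 3, its lowest library (log2 fold change 2.16, adjusted p = 0.0440). Sensory receptor genes, 1390 of them taken as a gauge of counts in genes known mainly from sensory tissue, moved with Duox2, at 0.0224 to 0.0769 CPM per kilobase in 1d-MI + 3, 0.0132 to 0.0387 in 1d-SHAM + 3 and 0.00946 to 0.0128 in the day-7 groups. Duox2 ran at 0 to 7.66 times that gauge in the 3-day libraries. The difference between 7d-MI + 3 and 1d-MI + 3 was -3.91 on the log2 scale (SE 0.90, adjusted p = 0.00200), with groups overlapping. With the gauge subtracted, a step chosen after seeing the data, it was -4.65 (SE 1.30, adjusted p = 0.00824), and the MI effects still did not pass (-1.76, adjusted p = 0.301 at day 7, and 2.35, adjusted p = 0.189 at day 1). Epithelial markers, which would go with its known site, were low but moved, with sums of 5.72, 8.22, 1.83 and 8.18 scaled CPM in 1d-MI + 3, against 1.85, 1.69, 0.532 and 0.499 in 1d-SHAM + 3, and with Krt19 of the 5 markers higher. Replicate 3 of 1d-MI + 3 was the lowest of its group for these markers, for Duox2, for the receptor gauge (0.0224 CPM per kilobase) and for genes detected (27324). At day 7 the sums were 2.38 to 6.59 in 7d-MI + 3 and 1.29 to 1.90 in 7d-SHAM + 3, with Cdh1 and Krt14 higher and Krt5 at 0. Their part in the Duox2 values was not tested.

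Other genes of the pathway were read from 3 lists. Among other oxidase genes, Cybc1, a chaperone of the membrane heterodimer, rose at day 7 by 1.03 on the log2 scale (SE 0.25, edgeR adjusted p = 0.00296). Duox1 fell by 2.25 (adjusted p = 0.0373) and its maturation factor Duoxa1 fell by 2.29 (0.0424), with Duox1 at 0.0387 to 0.316 scaled CPM in 7d-MI + 3 and 0.410 to 1.14 in 7d-SHAM + 3. At day 1 these 3 genes did not pass. Rac1, the widely expressed relative of Rac2, stood at 183 to 213 scaled CPM in 7d-MI + 3 and 164 to 193 in 7d-SHAM + 3 and did not pass (adjusted p = 0.177), nor did Nox1.

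Of 14 genes that prime or activate the phagocyte enzyme, 13 rose at day 7 and 6 at day 1, and none fell. Over all genes 19.8% rose at day 7 and 4.10% at day 1. The integrin chains Itgam and Itgb2 rose by 3.80 and 3.03 at day 7 and by 1.54 and 2.40 at day 1 on the log2 scale. The Rac exchange factors Dock2 and Vav1 rose by 2.64 and 2.80 at day 7 and by 1.501 and 2.49 at day 1. At day 1 the Fc receptor Fcgr1 rose by 2.44 and the lipid kinase Pik3cd by 1.38. Prkcd, a kinase that phosphorylates p47phox, rose by 1.97 and Pik3cg, a lipid kinase, by 1.71 at day 7. The median over the list was 2.32 at day 7 and 1.23 at day 1. Rap1a, a small GTPase, did not pass at either age (-0.26 and -0.12), and the formyl peptide receptor Fpr1 did not at day 1 (0.61, adjusted p = 0.628). Many of these genes, like the pan-leukocyte markers, are known from blood cells in general.

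Of 11 podosome partners of the Sh3pxd2 scaffolds, 5 rose and 1 fell at day 7, where 19.8% of all genes rose and 14.2% fell. The metalloproteases Adam12 (2.86, SE 0.22), Mmp14 (1.42, SE 0.17) and Adam15 (0.94, SE 0.17) rose, as did the kinase Src (1.08, SE 0.24), which phosphorylates Tks proteins, and Wasl (0.65, SE 0.24), an actin nucleation factor, while the adaptor Nck1 fell by 0.35. At day 1, Adam12 (0.82, SE 0.21) and Mmp14 (0.69, SE 0.17) rose and Nck1 fell by 0.41, where 4.10% of all genes rose and 4.36% fell. The list median was 0.29 at day 7 and 0.04 at day 1. Cttn and Mmp2 did not pass at either age. None of the genes of the 3 lists passed in an MI comparison at 21 days.

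21 days after the operation no member passed in any comparison of groups. For 7d-MI + 21 against 7d-SHAM + 21 edgeR called 0.00% of 24646 genes. Before adjustment 4111 had p under 0.05, and the calls were 1028 in DESeq2 and 14 in limma-voom. For 1d-MI + 21 against 1d-SHAM + 21 edgeR called 0.0162%, with 0.00811% in each direction and 3599 genes under 0.05 before adjustment, and DESeq2 called 328 and limma-voom 1. In 4 of the 9 genes every 7d-MI + 21 library lay above every 7d-SHAM + 21 library (Cybb, Ncf1, Rac2 and Sh3pxd2b), as in 5.83% of all genes, and in none did every one lie below, as in 6.76%. Cybb, Ncf1 and Sh3pxd2b were among the genes the study picked from 7d-MI against 1d-MI, so for them this count is no independent evidence. The median log2 fold change of the 9 genes was 0.58 at day 7 and 0.15 at day 1, against -0.13 and -0.11 over all genes. The spread between replicates was wider than at 3 days (biological coefficient of variation 0.567 at 21 days and 0.331 at 3 days).

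Cybb had 24.2, 11.3 and 14.5 scaled CPM in 7d-MI + 21, against 6.71, 10.3 and 10.1 in 7d-SHAM + 21. The groups did not overlap, and the log2 fold change was 0.88 (SE 0.36, edgeR adjusted p = 0.261). In hearts operated at day 1, Cybb had 5.97, 5.10 and 7.70 scaled CPM in 1d-MI + 21, against 14.0, 12.3 and 21.5 in 1d-SHAM + 21. Here every infarcted library lay below every sham library, with a log2 fold change of -1.35 (SE 0.36, edgeR adjusted p = 0.284) that passed in DESeq2 (adjusted p = 0.0180) and in a fit of these groups alone (0.0413).

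Groups did not overlap in the lower direction for 11.8% of all genes in that comparison. Pan-leukocyte sums were 48.4 to 61.0 scaled CPM in 1d-MI + 21 and 57.3 to 103 in 1d-SHAM + 21, and the Cybb share of that sum was 12.3, 8.44 and 12.6% in 1d-MI + 21, against 15.5, 21.5 and 21.0% in 1d-SHAM + 21. Ncf1 and Ncf4 shares did not go the same way, at 5.03 to 14.8% and 2.23 to 3.79% in 1d-MI + 21, against 1.91 to 4.65% and 1.115 to 1.70% in 1d-SHAM + 21. The difference of the Cybb effects between ages at 21 days was 2.23 (SE 0.51, edgeR adjusted p = 0.599, DESeq2 adjusted p = 0.0189). Infarcted hearts from which the study picked Cybb enter this difference, so it is no independent evidence.

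Sh3pxd2b had 28.3, 13.8 and 19.1 scaled CPM in 7d-MI + 21, against 7.82, 4.94 and 10.1 in 7d-SHAM + 21 (log2 fold change 1.42, SE 0.42, edgeR adjusted p = 0.199, DESeq2 adjusted p = 0.0423). In hearts operated at day 1 it had 18.6, 17.5 and 8.66 in 1d-MI + 21 and 5.98, 5.64 and 10.7 in 1d-SHAM + 21 (1.00, SE 0.41, adjusted p = 0.314). The day-7 groups did not overlap and the day-1 groups did. Fibroblast sums were 3108 to 4968 scaled CPM in 7d-MI + 21, against 965 to 1817 in 7d-SHAM + 21. Relative to them Sh3pxd2b came to 0.444 to 0.570% in 7d-MI + 21 and 0.512 to 0.605% in 7d-SHAM + 21, where the groups overlapped, unlike at 3 days.

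Sh3pxd2a had 84.9, 54.0 and 75.0 scaled CPM in 7d-MI + 21 and 89.3, 26.0 and 27.2 in 7d-SHAM + 21 (log2 fold change 0.58, SE 0.44, edgeR adjusted p = 0.488). Replicate 1 of the sham group stood with the infarcted hearts. Without 7d-SHAM + 21 replicate 1, Sh3pxd2a (1.47, adjusted p = 0.0116), Sh3pxd2b (1.495, 0.0223) and Ncf1 (1.61, 0.0259) passed, and 5903 genes of all did. In 1d-MI + 21 Sh3pxd2a had 90.6, 74.6 and 53.1 scaled CPM, against 43.3, 36.5 and 26.1 in 1d-SHAM + 21 (1.04, SE 0.45, adjusted p = 0.316), with no overlap. It was the 1 gene of 9 wholly higher there, as were 15.6% of all genes.

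Ncf1 had 5.43, 3.14 and 5.84 scaled CPM in 7d-MI + 21, against 2.77, 1.15 and 2.18 in 7d-SHAM + 21, with no overlap (log2 fold change 1.24, SE 0.45, edgeR adjusted p = 0.244). In 1d-MI + 21 it had 7.17, 5.12 and 3.07, against 1.72, 2.66 and 4.40 in 1d-SHAM + 21 (0.81, SE 0.45, adjusted p = 0.398). Rac2 ran between 1.94 and 3.74 scaled CPM in all 12 libraries and Ncf4 between 0.806 and 2.31, with day-7 log2 fold changes of 0.41 (SE 0.34) and 0.47 (SE 0.46).

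Nox4 had 7.51, 3.98 and 4.11 scaled CPM in 7d-MI + 21 and 1.14, 2.74 and 4.93 in 7d-SHAM + 21 (log2 fold change 0.85, SE 0.54, edgeR adjusted p = 0.415). It had 0.679, 1.18 and 2.50 in 1d-MI + 21 and 2.80, 1.81 and 3.79 in 1d-SHAM + 21 (-0.94, SE 0.54, adjusted p = 0.413). Between the infarcted groups Nox4 was 1.82 apart (SE 0.55, adjusted p = 0.407) and Cybb 1.41 apart (SE 0.36, adjusted p = 0.267), with 7d-MI + 21 above 1d-MI + 21 in every library for both genes, as in 8.90% of all genes. The study picked Cybb from 7d-MI against 1d-MI, so its direction here is no independent evidence. Duox2 had 0.564 to 1.00 scaled CPM in 7d-MI + 21 and 1.03 to 1.25 in 1d-MI + 21, a lower level with no overlap (log2 difference -0.49, SE 0.55, adjusted p = 0.939), as in 7.37% of all genes. In that comparison edgeR called 0.0325% of genes, 0.0243% higher and 0.00811% lower, with 1606 under 0.05 before adjustment. Between the sham groups Cybb was lower in every 7d-SHAM + 21 than 1d-SHAM + 21 library (log2 difference -0.82, SE 0.36, adjusted p = 1.00), as in 1.60% of all genes, while 2.65% were wholly higher. Cyba ran from 5.07 to 16.01 and Duox2 from 0.564 to 3.15 scaled CPM (38 to 350 Duox2 counts per library, 1.17 to 22.6 times the receptor gauge), with overlapping MI and sham groups at each age.

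**Figure D4:**
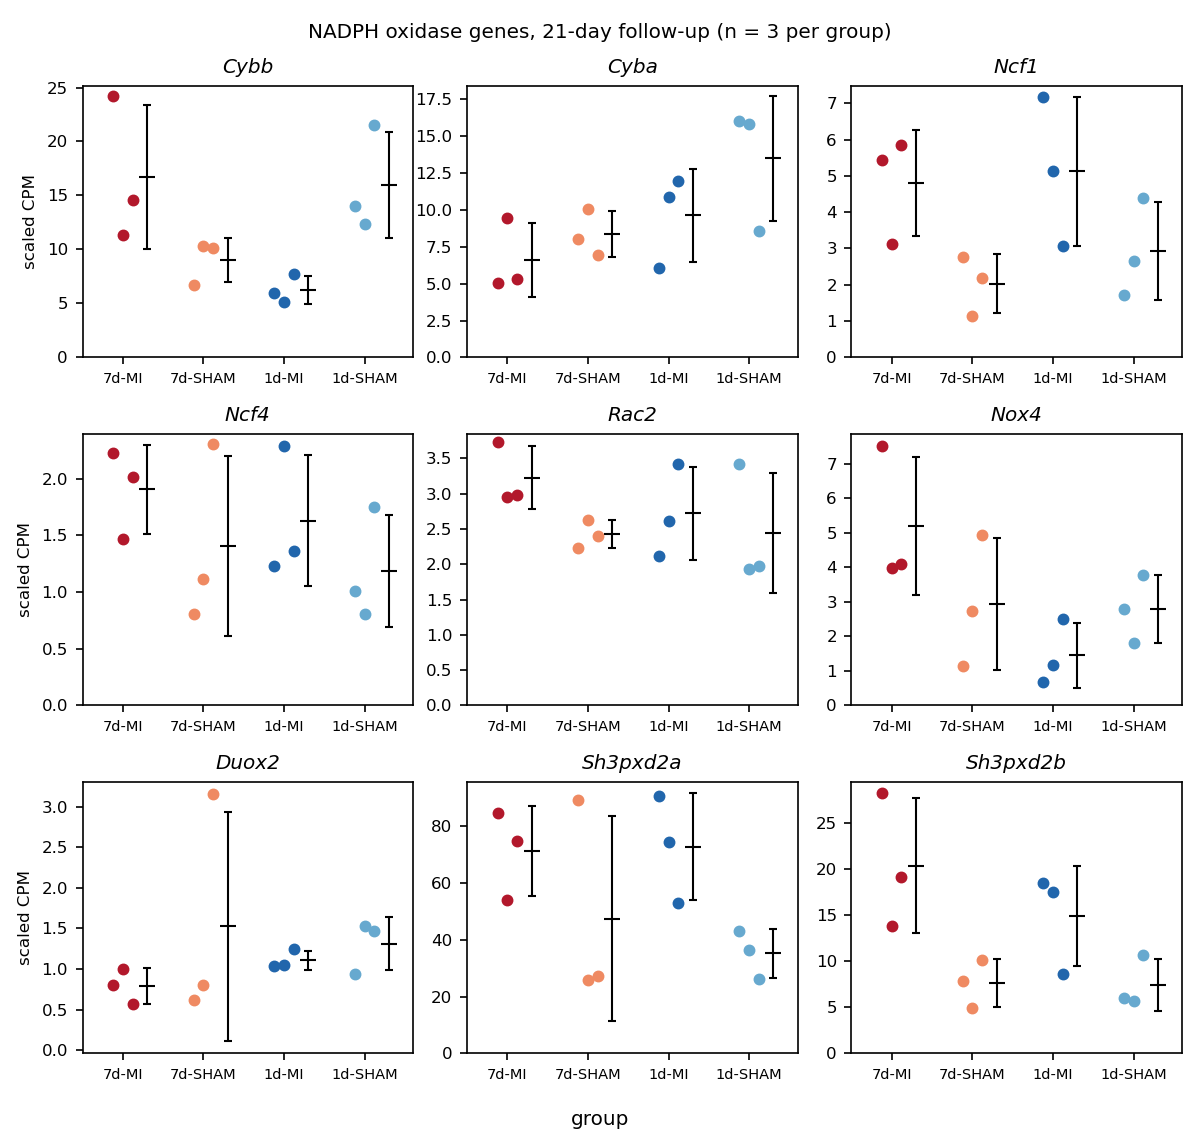
Scaled CPM of the 9 genes at the 21-day follow-up by group, 1 point per library, with mean ± SD (n = 3) as bars. Cybb lies at 11.3 to 24.2 in 7d-MI against 6.71 to 10.3 in 7d-SHAM and at 5.10 to 7.70 in 1d-MI against 12.3 to 21.5 in 1d-SHAM.

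The MI effect at 21 days was set against that at 3 days in 1 fit of all 28 libraries. At day 7, 2 of the 9 genes had a lower effect at 21 days. The difference was -2.70 for Ncf4 on the log2 scale (SE 0.55, edgeR adjusted p = 0.00422) and -1.78 for Rac2 (SE 0.46, 0.0216), where 3.08% of all genes had a lower and 1.95% a higher effect. At day 1, the difference for Cybb was -2.45 (SE 0.48, edgeR adjusted p = 0.00745), where 7.79% of all genes differed and 2.35% were lower. The split over all genes depended on scaling, with 69.9% of the calls at day 1 higher here and 21.1% under upper-quartile scaling. Rac2 passed beside Cybb at day 1 without 1d-SHAM + 3 replicate 2, a count of 2. The all-gene medians of these differences were -0.31 and -0.18. Kit and instrument changed with the follow-up and cannot be told apart from it. The Rac2 call was lost with no filter on low counts (adjusted p = 0.0960) and without 7d-MI + 3 replicate 2 (0.0605), 7d-MI + 21 replicate 3 (0.0850), 7d-SHAM + 3 replicate 1 (0.0526), 7d-SHAM + 3 replicate 2 (0.0543), 7d-SHAM + 21 replicate 2 (0.0589) or 7d-SHAM + 21 replicate 3 (0.0668).

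Per kilobase of gene length, Cyba had the highest mean level of the 9 genes in all 8 groups, at 17.5 ± 3.61 CPM per kilobase in 7d-MI + 3 and 10.9 ± 1.49 in 7d-SHAM + 3 (SD, n = 4 each). Cybb followed at 7.76 ± 2.90 in 7d-MI + 3, level with Sh3pxd2a within the spread (4.74 ± 1.204), whereas in 7d-SHAM + 3 they were at 1.55 ± 0.548 and 2.31 ± 0.0897 and also overlapped. Ncf4, Sh3pxd2b, Ncf1 and Rac2 came next in 7d-MI + 3, at 3.19, 2.79, 2.47 and 1.86, each overlapping its neighbour. Nox4 (0.687 in 7d-MI + 3) and Duox2 (0.0139) stood below all others there without overlap. In 1d-SHAM + 3 the level of Nox4 was 0.555 and ranked above those of Ncf4 (0.383), Ncf1 (0.284) and Rac2 (0.167). In the 21-day groups Cyba was at 8.72 ± 3.27 in 7d-MI + 21 and 11.01 ± 2.06 in 7d-SHAM + 21. It was at 12.7 ± 4.16 in 1d-MI + 21 and 17.8 ± 5.58 in 1d-SHAM + 21 (SD, n = 3 each). There it overlapped Sh3pxd2a in both infarcted groups, and Sh3pxd2a was the higher in 7d-MI + 21 replicates 1 (8.11 against 6.69) and 3 (7.17 against 6.97) and in 1d-MI + 21 replicate 1 (8.66 against 7.996).

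The genes most like a member over the 16 libraries at 3 days were found by the root mean square difference of mean-centred log2 levels among 8659 genes, as a description. Closest to Cybb were Dock2 (0.23), the Rac exchange factor named above, Tgfbi (0.25), a matrix protein, and Cyth4 (0.26), against a median of 1.32 over the candidates. Closest to Sh3pxd2b were Nfic (0.27), a transcription factor, Sdc3 (0.27), a syndecan, and Itgav (0.29), an integrin chain. Closest to Nox4 were Ap3d1, Nup205 and Uba6 (each 0.19), near which many genes lay, since the median was 0.49. Closest to Sh3pxd2a were Pcdhga10, Pcdhgb6 (each 0.16) and Pcdhgb1 (0.16), protocadherins that share exons and are hard to count apart. Over the 12 libraries at 21 days the distances were 0.56 for Dock2, 0.76 for Tgfbi and 0.72 for Cyth4 from Cybb, with 920 genes closer to Cybb than Dock2.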

How the data were processed

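RNA-seq libraries of myocardium were read from 30 deposited tables, 1 per sequencing run. The submitters' processing notes name TopHat2 2.0.11, Bowtie2 2.2.2, Cufflinks 2.2.1 and the build GRCm38. What each was used for is not stated there, nor how reads were counted, whether by strand, or with which gene annotation. The deposited values were whole read counts per gene, beside which the authors gave CPM, RPKM and log2 values. Counts were analysed, RPKM gave gene lengths only, and CPM recomputed from the counts matched the authors' CPM in 30 of 30 tables within 0.0001. The counts of 1d-SHAM + 21 replicate 2 and of 7d-SHAM + 21 replicate 3, each sequenced on 2 lanes, were summed.

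Each follow-up was fitted alone with edgeR 4.0.16 (R 4.3.3, limma 3.58.1): filterByExpr (minimum count 10, total 15), TMM, robust quasi-likelihood test, Benjamini-Hochberg adjustment over all genes, calls at adjusted p below 0.05. 20345 genes were tested at 3 days (33077962 to 51942648 counts per library) and 24646 at 21 days (40514177 to 168550985). The follow-ups were compared in 1 fit of 28 libraries and 26250 genes. SE is the absolute log2 fold change divided by the root of F. Log2 fold changes are MI over sham or day 7 over day 1. The script was tested on simulated data. Alternatives were RLE and upper-quartile scaling, TMM leaving out the 20 genes with most counts, no filter on counts, a filter at a mean count of 50, DESeq2 1.42.0, limma-voom with and without a block for title prefix, single prefixes, 2 groups alone, first lanes, a replicate block and leaving out each library.

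Members, marker lists and pathway lists were chosen with earlier results of these data known. All 9 members are named. Of the pathway lists, every gene that passed in an MI comparison was named, up to 6 per list by smallest p, with up to 2 that did not. 1 gene of these lists is not reported here. Also named were the 3 genes nearest to each of 4 members in log2 level, with a prior count of 2, among genes with a mean of at least 5 CPM and no clone or predicted symbol. Marker ratios and the subtraction of the receptor gauge were added after the data were seen. Replicates were numbered in accession order. No 2 replicates agreed within sampling noise (lowest chi-square per gene 12.5 over 36 pairs). Protein identities between members were not computed.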

Additional observations from a re-analysis of the deposited data

Results flagged for a closer look

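2 libraries stood apart from the other replicates of their group by the gap to the nearest relative to the group's range, a measure that chance passes in about 1 in 20 groups, over 36 groups of 4 tested. Ncf1 was 1.53 scaled CPM in 1d-SHAM + 3 replicate 4, where the next library had 0.930. Rac2 was 1.36 scaled CPM in 7d-SHAM + 3 replicate 4, where the next had 1.13.

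The MI effect at 3 days differed between the ages at operation, by the interaction term, for Ncf4 (1.88 on the log2 scale), Nox4 (1.15), Sh3pxd2b (1.14) and Sh3pxd2a (0.77). Ncf4, Sh3pxd2b and Sh3pxd2a had been picked by the study from the same infarcted hearts. The MI effect differed between the follow-ups for Ncf4 (-2.70) and Rac2 (-1.78) in hearts operated at day 7 and for Cybb (-2.45) in hearts operated at day 1. Library kit and instrument cannot be told apart from the follow-up.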

How the results depend on the processing

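Of 1205 alternative values for single genes, 1121 kept direction and side of the threshold, 53 lost a call, 26 gained one and 5 turned direction. The 5 were Cyba at day 1 + 3 against prefix 1103 alone (-0.30), Duox2 at day 7 + 21 without 7d-SHAM + 21 replicate 3 (0.21, range -1.25 to 0.21 leaving out 1 library), Rac2 at day 1 + 21 under upper-quartile scaling (-0.14) and without 1d-MI + 21 replicate 3 (-0.041, range -0.041 to 0.45 leaving out 1 library), and Duox2 at day 1 + 21 with the replicate block (0.066). None of these genes passed there in the analysis reported. The cause was not tested.

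Members called, of 9, moved as follows. For 1d-MI + 3 against 1d-SHAM + 3 (5) the count was 0 with the prefix block and 0 with 2 groups alone, and 3 to 6 leaving out 1 library. For sham at 3 days (3) it was 0 with the prefix block and 1 to 4 leaving out 1 library. For the difference between ages at 3 days (4) it was 2 in limma-voom, 1 with the prefix block, 6 with no filter and 3 to 6 leaving out 1 library. At 21 days the count of 0 for 7d-MI against 7d-SHAM was 1 with no filter, 1 in DESeq2 and 0 to 3 leaving out 1 library. For 1d-MI against 1d-SHAM it was 1 in DESeq2 and 1 with 2 groups alone, for 7d-MI against 1d-MI 1 with no filter and 1 in DESeq2, and for the difference between ages 1 in DESeq2. Between follow-ups the day-7 count of 2 was 1 with no filter, 4 with the stricter filter, 4 in DESeq2 and 1 to 3 leaving out 1 library. The day-1 count of 1 was 2 with RLE, upper-quartile scaling, the stricter filter and DESeq2, and 1 to 2 leaving out 1 library.

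Over all genes, the calls for 1d-MI + 3 against 1d-SHAM + 3 (1722) ran from 161 to 5599, and for 7d-MI + 3 against 7d-SHAM + 3 (6910) from 4497 to 7776. For 7d-MI + 21 against 7d-SHAM + 21 they ran from 0 to 5903. Upper-quartile scaling moved the all-gene median at day 1 + 3 to 0.21 against 0.06, and the share of calls that were higher to 78.5% against 48.4%. In the difference between ages at 3 days these became -0.21 against 0.03 and 36.8% against 68.9%, and in 7d-MI + 3 against 1d-MI + 3 -0.37 against -0.13 and 27.3% against 45.2%. Between follow-ups at day 1 the median was -0.65 with RLE and -0.82 with upper-quartile scaling against -0.18, the share of calls that were higher 36.6% and 21.1% against 69.9%, and the calls (2044) ran from 90 to 3448, lowest without 1d-MI + 21 replicate 1. At day 7 these were -0.55 and -0.62 against -0.31, 30.3% and 27.4% against 38.7%, and 444 to 5595 (1320). Replicate numbers in the 21-day titles gave correlations of -0.188 to 0.544 over 15 pairs, 6 of them over 0.1, so the numbers were not taken to pair samples. As a hint from the data and not the design, 8 of 11 libraries with a partner were closest to their own number. With the replicate block 0 members were called in every 21-day comparison, and 46 genes of all at day 7. The 3-day titles allow no block by number.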
